A study of Homo sapiens with 8 samples.

Results

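The genes OSGIN1, PIR, TRIM16, TRIM16L, CABYR, NR0B1 and UGDH were followed in A549 cells after siRNA-mediated silencing of NFE2L2, the gene that codes for the transcription factor NRF2. They were chosen by name, as genes associated with lung tumours that carry KEAP1 mutations. Their values in these libraries were not part of that rule, but earlier results of these data were known when they were chosen. All 7 were found by Ensembl identifier among the 60291 gene rows of the count files, and all 7 were among the 17811 genes with enough reads to be tested. A549 cells, a long-established human line from a lung adenocarcinoma, carry a loss-of-function mutation in KEAP1, and this background was shared by every library. No KEAP1-intact cells were sequenced here, so the association with KEAP1 mutation itself could not be examined, and the comparison made is that of silenced with unsilenced NFE2L2.

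Strand-specific total RNA was sequenced from 8 transfections of 250000 cells each, collected after 48 h. In 3 of them the cells received an siRNA duplex against NFE2L2, a different duplex each time, so that NFE2L2 siRNA libraries 1, 2 and 3 are also duplexes 1, 2 and 3. In 4 of them the cells received non-targeting control siRNA at the same amount of 5 nmol, with control duplex 1 in control libraries 1 and 2 and control duplex 2 in control libraries 3 and 4. The remaining mock library came from cells given transfection reagent without siRNA. All libraries came from 1 cell line and nothing in the labels says that they came from separate cultures, so the p-values measure the spread between these transfections. In bulk RNA of this kind, fewer cells expressing a gene and less RNA per cell cannot be told apart.

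KEAP1 is an adaptor protein that, in unstressed cells, holds NRF2 in the cytoplasm and presents it for ubiquitination and degradation. Oxidants and electrophiles modify KEAP1, and NRF2 then accumulates in the nucleus, pairs with a small MAF protein and binds antioxidant response elements near genes of detoxification and redox balance. Lung cancers that lose KEAP1 function, or that gain stabilizing mutations in NFE2L2, keep this programme on without stress. The 7 genes have diverse roles. OSGIN1 codes for an oxidative stress-induced growth inhibitor, PIR for pirin, an iron-containing nuclear protein, and TRIM16 for a tripartite motif protein with a part in the autophagy of damaged lysosomes. TRIM16L is a partial copy of TRIM16 on the same chromosome. CABYR codes for a calcium-binding protein of the sperm tail, NR0B1 for the orphan nuclear receptor DAX1, and UGDH for the enzyme that makes UDP-glucuronate.

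The core of the antioxidant response element is TGACNNNGC, and TGACTCA is the related site bound by AP-1 factors. Both were searched on either strand in RefSeq promoter windows of GRCh38.p14, which reach from 250 bases before to 50 bases after each annotated start site. A window was found for 6 of the 7 genes, the exception being TRIM16L. The element core was present for PIR and CABYR, and TGACTCA for OSGIN1 and PIR, where it lies inside the element core. CABYR has more than 1 window. The core is in the window chr18:24139234-24139533, and the window chr18:24138812-24139111 holds neither motif. The matches are shown because they are the only ones in the windows of these genes, with the matched letters in capitals and each stretch read on the strand of its gene. The OSGIN1 stretch is chr16:83953131-83953160 on the plus strand with the match starting at position −97 from the start site, the PIR stretch is chrX:15493289-15493318 on the minus strand with the match starting at position 27 after it, and the CABYR stretch is chr18:24139413-24139442 on the plus strand with the match starting at position −60.
OSGIN1: acgggcccctgcTGACTCAcgcttatgaaa
PIR: ggccgcgaagcGCTGAGTCAcggtgaggct
CABYR: aaaacgagcacTGACACAGCgggggcccac
Neither motif was found in the windows of TRIM16, NR0B1 and UGDH. Among all 35116 windows, 13.3% held TGACNNNGC and 4.95% held TGACTCA, and counted by gene 16.1% and 6.05% of 27305 genes had a window with the motif. A match is a description of the letters and not a binding site, and the lack of one says only that these letters are not in this window.

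Between 35525141 and 41645410 reads were counted on genes per library. Levels are given as normalized CPM, that is reads per 1000000 gene counts after TMM scaling, and a count of 3 reads corresponds to 0.072 to 0.0844 CPM, which is below every value of the 7 genes. NFE2L2 was at 29.5%, 46.6% and 26.6% of the control mean with duplexes 1, 2 and 3, and at 98.8% in the mock library. KEAP1 itself was called lower, with a log2 fold change of −0.83 ± 0.148 (SE; adjusted p = 0.00922). The KEAP1 call held in 1 of the 7 fits that each left out a library, the one without NFE2L2 siRNA 2, and the adjusted p was 0.0156 to 0.0424 in the others. The epithelial markers KRT8, KRT18, KRT7, KRT19 and EPCAM were all detected, with a summed level of 8226 to 12835 CPM in the silenced libraries and 8568 to 9100 CPM in the controls. Of 5 lung lineage markers, SFTPA1 had no read in any library, and the summed level was 2.49 to 3.66 CPM after silencing and 1.97 to 2.77 in the controls. Summed markers of other cell types were low in both groups but higher with NFE2L2 siRNA. They came to 7.73 to 11.2 against 4.57 to 6.85 CPM for 5 leukocyte genes, nearly all of it CD14 (7.66 to 11.0 against 4.32 to 6.71 CPM, adjusted p = 0.0287), while the other leukocyte genes had at most 6 reads in a library and PTPRC at most 3. They came to 0.643 to 1.10 against 0.215 to 0.332 for 3 endothelial genes and 9.42 to 14.0 against 4.15 to 4.65 for 4 fibroblast genes. Among these, COL1A1 (331 to 569 against 143 to 169 reads, adjusted p = 0.000493) and CDH5 (18 to 39 against 4 to 8 reads, adjusted p = 0.00820) were called higher, while COL1A2 had at most 3 reads in a library. Leaving out single libraries, COL1A1 was called in 7 of 7 fits and CDH5 in 1, without NFE2L2 siRNA 1, with an adjusted p of 0.0103 to 0.0370 in the others. The part of these markers in the results was not tested.

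All 7 genes fell with NFE2L2 siRNA, by 2.05-fold for CABYR to 10.9-fold for OSGIN1. The fits covered all tested genes (edgeR quasi-likelihood test, two-sided, Benjamini-Hochberg adjustment, threshold 0.01), among which 243 were called lower, or 1.36%, and 2.76% were called in either direction. In each of the 7 genes each silenced library was below each of the 4 controls, which was also so for 11.4% of the tested genes. The plot of the levels shows this separation gene by gene.

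**Figure D1:**
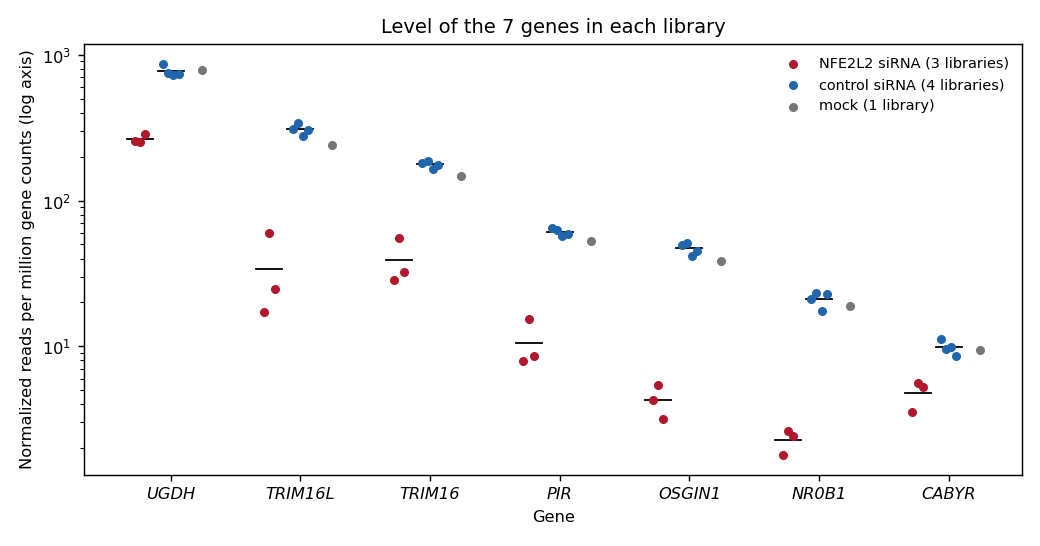
Normalized CPM (vertical log axis) of each gene in the 3 NFE2L2 siRNA libraries (red), the 4 control siRNA libraries (blue) and the mock library (grey), with lines at the group means. The red points sit below the blue points in all 7 genes, most widely for OSGIN1 and NR0B1 and most narrowly for CABYR.

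OSGIN1 (ENSG00000140961.8) spans positions 83964916 to 83999937 of chromosome 16 (GRCh37, plus strand). Its levels were 4.31, 5.44 and 3.17 CPM with NFE2L2 siRNA 1, 2 and 3, against 49.5, 51.4, 41.7 and 45.0 CPM in control libraries 1 to 4. The lowest control library was 7.66-fold above the highest silenced library, the widest such gap among the 7 genes. The mean fell from 46.9 ± 4.38 (SD, n = 4) to 4.31 ± 1.14 CPM (SD, n = 3). The log2 fold change was −3.45 ± 0.187 (SE; adjusted p = 8.83e-06), which placed OSGIN1 at rank 23 of 17811 from the most reduced gene. OSGIN2, its paralog, was at −0.44 on the log2 scale and did not pass the threshold (adjusted p = 0.174).

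PIR (ENSG00000087842.6), at chromosome X, 15402921 to 15511687, minus strand, had 285, 601 and 363 reads in the silenced libraries and 2420, 2332, 2105 and 2112 in the controls. After scaling these were 7.97, 15.3 and 8.53 CPM against 65.0, 62.7, 56.9 and 58.5 CPM. The groups were separated by a gap of 3.72-fold, and duplex 2 left the highest of the 3 silenced levels. PIR fell from 60.8 ± 3.74 (SD, n = 4) to 10.6 ± 4.07 CPM (SD, n = 3), a 5.73-fold reduction with a log2 fold change of −2.52 ± 0.218 (SE; adjusted p = 0.000189). The call was lost when control duplex 2 alone served as the control (log2 fold change −2.45, adjusted p = 0.0111). Pirin is known to bind BCL3 and nuclear factor I proteins. Of 9 genes for these partners and the NF-kB subunits, 0 passed the threshold, 3 had an unadjusted p under 0.05, DESeq2 called 2 and limma-voom 0. Among all 17811 tested genes, 4457 had an unadjusted p under 0.05, DESeq2 called 1319 and limma-voom 465. The median log2 fold change of the 9 genes was 0.20, against 0.0082 over all tested genes. Those nearest to the threshold were NFIB at 0.61 (adjusted p = 0.0346) and NFKB2 at −0.64 (adjusted p = 0.0377).

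TRIM16 (ENSG00000221926.7) is encoded by the minus strand of chromosome 17 between 15531274 and 15587625. The 3 silenced libraries held 28.6, 55.3 and 32.5 CPM, and the control libraries held 182, 188, 164 and 176 CPM. Every silenced library was below the controls, with duplex 2 nearest to them. The mean fell 4.57-fold from 178 ± 10.3 (SD, n = 4) to 38.8 ± 14.4 CPM (SD, n = 3), with a log2 fold change of −2.19 ± 0.210 (SE; adjusted p = 0.000306). With control duplex 2 as the only control the log2 fold change was −2.13 and the adjusted p 0.0141. TRIM16 protein works with galectin-3 to mark ruptured lysosomes for autophagy. Of 12 genes for galectins and autophagy factors of that process, all tested, SQSTM1 fell (log2 fold change −1.28 ± 0.114, SE; adjusted p = 0.000227) and none was called higher. SQSTM1 codes for the autophagy receptor p62, which also binds KEAP1. The median over the 12 genes was 0.06 on the log2 scale. Of the 12 genes, 3 had an unadjusted p under 0.05, DESeq2 called 2 and limma-voom 1. Of all 17811 tested genes, 4457 had an unadjusted p under 0.05 and 1.36% were called lower. Close to the threshold were ATG16L1 at −0.42 (adjusted p = 0.0329) and TFEB at 0.46 (adjusted p = 0.0457).

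TRIM16L (ENSG00000108448.16) occupies 18625550 to 18638773 of chromosome 17, plus strand, and is annotated in GENCODE v44 as a transcribed unprocessed pseudogene. Its reads numbered 616, 2339 and 1057 after silencing, compared with 11479, 12602, 10332 and 11086 in control libraries 1 to 4, or 17.2, 59.5 and 24.8 CPM against 308, 339, 279 and 307 CPM. It varied most among the silenced libraries, by 3.45-fold from duplex 1 to duplex 2, yet the highest of them was still 4.69-fold below the lowest control. TRIM16L fell 9.10-fold, from 308 ± 24.4 (SD, n = 4) to 33.8 ± 22.5 CPM (SD, n = 3), with a log2 fold change of −3.19 ± 0.375 (SE; adjusted p = 0.00108). The adjusted p was 0.0177 with control duplex 1 alone, 0.0280 with control duplex 2 alone and 0.0182 with each control duplex summed to 1 library.

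Reads counted on TRIM16L were fewer, relative to those counted on its paralog TRIM16, in the silenced libraries than in the controls. TRIM16L had 0.602, 1.07 and 0.764 reads per TRIM16 read with NFE2L2 siRNA 1, 2 and 3, against 1.69, 1.80, 1.70 and 1.74 in control libraries 1 to 4 and 1.62 in the mock library. The silenced and control libraries did not overlap, and TRIM16L reads were fewer than TRIM16 reads in 2 of the 3 silenced libraries and in no control library. The mean log2 ratio was −0.34 ± 0.42 (SD, n = 3) against 0.79 ± 0.041 (SD, n = 4), a difference of −1.13 with an exact permutation p of 0.0571 (two-sided), the smallest that the 35 divisions of 7 libraries allow, so this test cannot reach 0.05. The ratio within a library does not depend on scaling, but it does depend on how reads from shared sequence were assigned. Shared sequence was measured in the exons of GENCODE v44, which divides the TRIM16L locus between 2 identifiers and leaves 1176 bases of exon under this one. The reads were counted on GENCODE v19, so the shares may describe only part of the counted TRIM16L. In these exons, 57.3% of the 50-base stretches of TRIM16L, and 10.9% of those of TRIM16, recur without a mismatch in the other gene. With 75-base stretches the shares were 45.5% and 8.1%. Counting repeats anywhere on chromosome 17, 36.9% of the 50-base and 26.3% of the 75-base stretches of TRIM16 recur, whereas the shares for TRIM16L stay at 57.3% and 45.5%. Reads placed at more than 1 position were not counted, so the levels of both genes rest on the sequence that tells them apart and are uncertain to that extent.

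**Figure D2:**
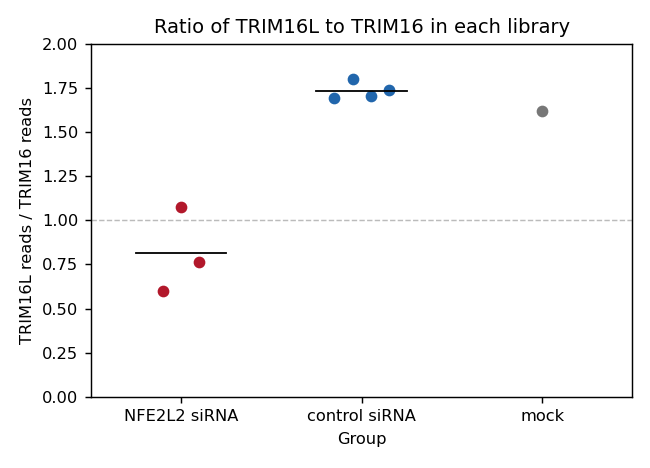
Reads on TRIM16L divided by reads on TRIM16 (vertical axis, linear) in each NFE2L2 siRNA, control siRNA and mock library, with lines at the group means and a dashed line at equal reads. The control libraries cluster between 1.69 and 1.80, while the silenced libraries spread from 0.602 to 1.07.

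CABYR (ENSG00000154040.16), at 21718951 to 21741564 of chromosome 18, plus strand, had the fewest reads of the 7 genes in the control libraries and was the least reduced. Its 126, 221 and 222 reads after silencing faced 419, 358, 366 and 308 reads in the controls, or 3.52, 5.62 and 5.22 CPM against 11.3, 9.63, 9.89 and 8.53 CPM. The groups did not overlap, but the gap between the nearest libraries was only 1.52-fold. The mean fell from 9.82 ± 1.12 (SD, n = 4) to 4.79 ± 1.11 CPM (SD, n = 3), with a log2 fold change of −1.03 ± 0.177 (SE; adjusted p = 0.00776). This call was close to the threshold and depended on the libraries used. The adjusted p was 0.0250 without NFE2L2 siRNA 3, and 0.0226, 0.0299, 0.0251 and 0.0163 without control libraries 1, 2, 3 and 4, respectively. It was 0.0501 with control duplex 1 alone, 0.0993 with control duplex 2 alone and 0.0842 with the duplexes summed, and the direction was kept in each case. Among 9 genes for other proteins of the sperm fibrous sheath and tail, 3 had enough reads to be tested and 0 were called, with 2 at an unadjusted p under 0.05 and 0 called by DESeq2 or limma-voom. An unadjusted p under 0.05 was found for 4457 of all 17811 tested genes. ROPN1L was at −0.69 (adjusted p = 0.0726) and SPA17 at −0.29 (adjusted p = 0.119) on the log2 scale.

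NR0B1 (ENSG00000169297.6) maps to 30322323 to 30327507 of chromosome X, minus strand. The silenced libraries held 1.79, 2.62 and 2.42 CPM, from 64, 103 and 103 reads, and the control libraries 21.1, 23.1, 17.6 and 22.8 CPM. The 3 duplexes gave similar levels, all of them far below the controls. NR0B1 fell 9.24-fold from 21.1 ± 2.53 (SD, n = 4) to 2.28 ± 0.433 CPM (SD, n = 3), with a log2 fold change of −3.21 ± 0.172 (SE; adjusted p = 8.83e-06) and rank 29 from the most reduced gene. DAX1 lacks a classical DNA-binding domain and is known as a repressor of the steroidogenic receptors SF-1 and LRH-1. Of 12 genes for its relatives, partners and steroidogenic targets, 7 were tested, with 0 called lower and 1 called higher. The whole set of 17811 tested genes held 243 called lower and 248 called higher. NR5A2, which codes for LRH-1, was called higher (log2 fold change 0.77 ± 0.121, SE; adjusted p = 0.00523), with 1144, 1154 and 1678 reads against 798, 694, 720 and 700. Its call was lost without NFE2L2 siRNA 3 (adjusted p = 0.0148) and without control library 1, 2, 3 or 4 (0.0124, 0.0281, 0.0236 and 0.0229).

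UGDH (ENSG00000109814.7) had the most reads of the 7 genes and covers 39500375 to 39529931 of chromosome 4, minus strand. Its levels were 257, 251 and 287 CPM with NFE2L2 siRNA and 870, 754, 731 and 734 CPM with control siRNA. Control library 1 stood above the other controls, and the 3 silenced libraries were alike, within 1.14-fold of each other. UGDH fell 2.91-fold from 772 ± 66.0 (SD, n = 4) to 265 ± 19.3 CPM (SD, n = 3), with a log2 fold change of −1.54 ± 0.102 (SE; adjusted p = 2.77e-05). UDP-glucuronate is the sugar donor of the UDP-glucuronosyltransferases and a building block of hyaluronan and other glycosaminoglycans. Of 28 other genes that make or use it, 17 were tested, of which 3 fell, 1 rose and 13 did not pass, with a median log2 fold change of 0.11. For comparison, 243 of all 17811 tested genes fell and 248 rose. The 3 listed genes that fell were the glucuronosyltransferases UGT1A1 (−2.44, adjusted p = 0.00901), UGT1A6 (−2.11, adjusted p = 0.00276) and UGT1A7 (−2.05, adjusted p = 0.000267). They belong to 1 locus and are not separate loci, each with its own first exon and the remaining exons shared. Reads wholly within the shared exons were ambiguous and entered no gene, so these counts rest on the parts not shared. UGT1A1 had only 2 or 3 reads in each silenced library, and it was called in none of the 7 fits that left out a library (adjusted p = 0.0147 to 0.0396). UGT1A6 lost its call without NFE2L2 siRNA 3 (adjusted p = 0.0178) and without control library 2 (adjusted p = 0.0124). The hyaluronan synthase gene HAS3 rose (1.67, adjusted p = 0.000713), from 481 to 616 reads with control siRNA to 1385 to 2152 with NFE2L2 siRNA.

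Levels of different genes were compared after division by the exon length in GENCODE v44, leaving out TRIM16L, whose locus that release divides between 2 identifiers. In the control libraries the order by CPM per kilobase was UGDH (192 ± 16.4, SD, n = 4), TRIM16 (31.5 ± 1.83), PIR (24.2 ± 1.49), NR0B1 (10.6 ± 1.27), OSGIN1 (8.44 ± 0.789) and CABYR (2.82 ± 0.321). The libraries of NR0B1 and OSGIN1 overlapped in level, and the other neighbours in this order did not. With NFE2L2 siRNA the order was UGDH (65.9 ± 4.79, SD, n = 3), TRIM16 (6.88 ± 2.56), PIR (4.22 ± 1.62), CABYR (1.37 ± 0.319), NR0B1 (1.14 ± 0.217) and OSGIN1 (0.775 ± 0.204). CABYR thus moved from the last place to the fourth, although the libraries of TRIM16 and PIR, of CABYR and NR0B1, and of NR0B1 and OSGIN1 overlapped in level. UGDH stayed far above the rest on this scale in both groups.

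The 3 NFE2L2 duplexes did not silence the 7 genes evenly. Duplex 2, which also left the most NFE2L2, gave the highest silenced level for 6 of the 7 genes, while UGDH was highest with duplex 3. Duplex 1 gave the lowest level for 5 of them. In percent of the control mean, TRIM16L was at 5.59, 19.3 and 8.06 with duplexes 1, 2 and 3, TRIM16 at 16.1, 31.2 and 18.3, and PIR at 13.1, 25.2 and 14.0. NR0B1 was at 8.47, 12.4 and 11.5%, OSGIN1 at 9.18, 11.6 and 6.77%, CABYR at 35.9, 57.2 and 53.1%, and UGDH at 33.3, 32.5 and 37.2%. From lowest to highest, NFE2L2 itself followed the order of duplexes 3, 1 and 2, at 26.6, 29.5 and 46.6%, and so did OSGIN1. TRIM16L, TRIM16, PIR, NR0B1 and CABYR followed the order of duplexes 1, 3 and 2, and UGDH that of 2, 1 and 3. How often such orders occur among all tested genes was not counted. Each duplex was sequenced once, so differences between the duplexes carry no test.

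**Figure D3:**
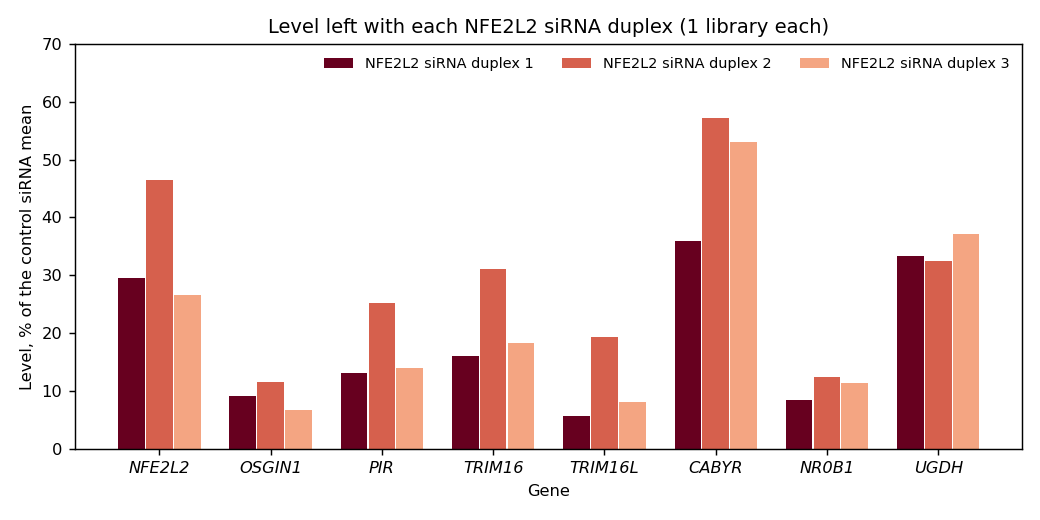
Level left with each of the 3 NFE2L2 siRNA duplexes, as a percentage of the mean of the 4 control siRNA libraries (vertical axis from 0), for NFE2L2 and the 7 genes, with 1 library per bar. Duplex 2 left the highest bar for NFE2L2 and for 6 of the 7 genes, and CABYR kept the largest share of its control level with each duplex.

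The spread between control transfections was small beside these reductions. Between control duplex 2 and control duplex 1 the log2 fold changes of the 7 genes ran from −0.22 for OSGIN1 to −0.12 for TRIM16, and none was called. In the same fit 0 of all tested genes were called (0%), with 1293 at an unadjusted p under 0.05, whereas DESeq2 called 70 genes and edgeR on the 4 control libraries alone called 546. None of the 7 genes was called in any of these fits, with lowest adjusted p-values of 0.890 (UGDH), 0.9998 and 0.0778 (OSGIN1).

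The mock library resembled the controls more than the silenced libraries. All 7 genes were higher in it than in every NFE2L2 siRNA library. CABYR, NR0B1 and UGDH lay within the range of the controls, at 9.39, 18.8 and 786 CPM. OSGIN1, PIR, TRIM16 and TRIM16L lay below every control library, at 38.6, 52.7, 148 and 240 CPM, or 82.4, 86.8, 83.4 and 77.8% of the control mean. A mock level below every control was found for 22.5% of the tested genes, and with 1 mock library there is no test of this difference.

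Genes that overlap or flank the 7 genes were examined next, 27 in all, of which 18 had enough reads to be tested. Of these, 5 were called lower and 0 higher, while 1.36% of all tested genes were called lower. NECAB2, which codes for a neuronal calcium-binding protein, starts 1911 bp downstream of OSGIN1 on the same strand, and had 5, 13 and 6 reads with NFE2L2 siRNA against 173, 229, 227 and 232 with control siRNA. It fell 28.2-fold (log2 fold change −4.82 ± 0.288, SE, adjusted p = 1.77e-05), more than OSGIN1 itself. FBXW10, an F-box gene 8565 bp downstream of TRIM16L on the same strand, had 17, 57 and 31 reads against 550, 682, 621 and 622, and fell 18.8-fold (−4.23 ± 0.292, SE, adjusted p = 3.77e-05).

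The pattern was alike downstream of PIR and TRIM16, at lower counts. VEGFD, the gene for a lymphangiogenic growth factor, lies 385 bp downstream of PIR on the same strand and had 1, 7 and 6 reads against 37, 41, 54 and 57, a 10.6-fold reduction (−3.40 ± 0.407, SE, adjusted p = 0.00119). CDRT1 lies 8447 bp downstream of TRIM16 on the same strand and had 29, 31 and 16 reads against 174, 205, 178 and 192, a 7.76-fold reduction (−2.96 ± 0.244, SE, adjusted p = 0.000132). The transcript model ENSG00000251537 spans positions 15474805 to 15554967 of chromosome 17 on the same strand and overlaps both TRIM16 and CDRT1. From the stretches that no other model shares, it had 3, 6 and 7 reads against 48, 30, 40 and 41 (−2.96 ± 0.320, SE, adjusted p = 0.000655). In each of these 5 genes each silenced library was below each control, which was also so for 11.4% of all tested genes. The mock library lay between the groups in each, with 1.28 CPM for NECAB2 against 4.65 to 6.42 in the controls and 0.140 to 0.331 with NFE2L2 siRNA. NECAB2, FBXW10 and CDRT1 were called in all 18 alternative settings, VEGFD in 15 and ENSG00000251537 in 16.

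Grouped by strand and distance after the values had been seen, 4 of 4 tested genes that followed a member on its own strand within 10 kb were called lower. Of all tested genes, 1.36% were called lower. CDRT1 and FBXW10 follow TRIM16 and its partial copy TRIM16L, so they may not be separate cases. Sequence shared between CDRT1 and FBXW10 was not examined. The upstream side offers no matched comparison, since only 1 nearest tested gene, TTC39C, precedes its member on the same strand within 10 kb, at −0.16 on the log2 scale (adjusted p = 0.459). The other 6 are farther away, some on the opposite strand, and 0 of them were called, although ZNF286A (−0.60, adjusted p = 0.0277) and SMIM14 (−0.39, adjusted p = 0.0492) had adjusted p-values under 0.05. The genes behind CABYR, NR0B1 and UGDH differ in strand or distance. OSBPL1A begins 444 bp beyond CABYR on the opposite strand and was at −0.05 on the log2 scale (adjusted p = 0.787). MLYCD, which overlaps OSGIN1 on the same strand, was at 0.02 (adjusted p = 0.947), and UGDH-AS1, which overlaps UGDH on the opposite strand, was at −0.12 (adjusted p = 0.788). LIAS, beyond UGDH on the opposite strand, was at −0.50 (adjusted p = 0.0200). The files hold 1 count per gene, so the place of the reads within these genes is not known here, and whether they belong to transcripts that begin in the neighbouring member was not tested.

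**Figure D4:**
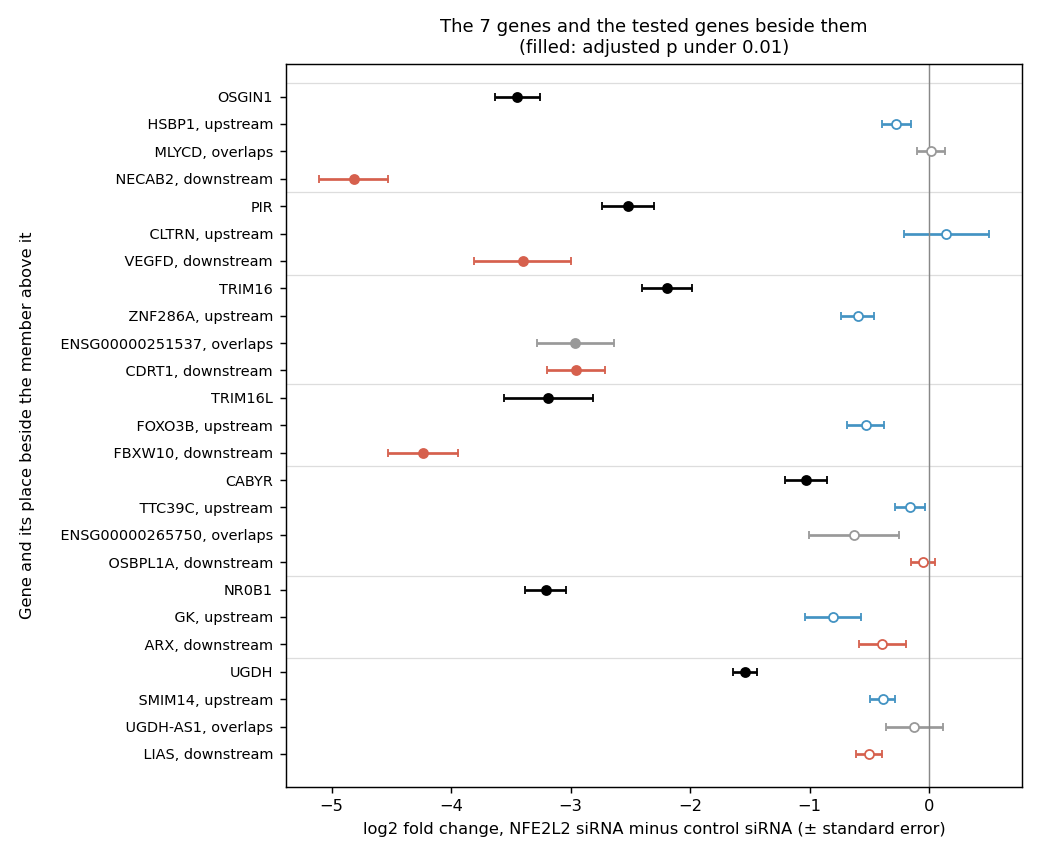
Log2 fold change (NFE2L2 siRNA minus control siRNA, horizontal axis, with standard error) of each of the 7 genes (black) and of the tested genes upstream (blue), overlapping (grey) and downstream (red) of it, with filled points for an adjusted p under 0.01. The filled points other than the 7 genes are NECAB2, VEGFD, CDRT1, FBXW10 and ENSG00000251537, and no upstream gene is filled, most of which are farther than 10 kb away or on the opposite strand.

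The wider programme was examined with a list of coding genes whose expression is associated with NFE2L2 mutation in tumours, a list that did not come from these libraries. It holds OSGIN1, TRIM16L and CABYR and 62 other genes, of which 58 were tested. Of these, 44 fell, 1 rose and 13 did not pass, and the median log2 fold change was −1.55 against 0.0082 over all tested genes. Of all 17811 tested genes, 243 fell and 248 rose. The most reduced of the 58 were the fatty acid hydroxylase gene CYP4F11 (−4.18, adjusted p = 9.87e-07), the aldo-keto reductase AKR1B10 (−3.62, adjusted p = 1.22e-05) and the aldehyde dehydrogenase ALDH3A1 (−3.43, adjusted p = 2.21e-05). They were followed by the transporter SLC47A2 (−3.32, adjusted p = 0.00911), the cystine transporter subunit SLC7A11 (−3.09, adjusted p = 0.000307), CYP4F3 (−3.04, adjusted p = 0.000275), TSPAN7 (−3.03, adjusted p = 7.83e-05) and the prostaglandin reductase PTGR1 (−2.75, adjusted p = 4.72e-06). OSGIN1 stood between AKR1B10 and ALDH3A1 in this order, NR0B1 and TRIM16L between SLC47A2 and SLC7A11, and CABYR near the end of the called genes. WNT5A, which codes for a secreted Wnt ligand, was the 1 gene called higher (0.86 ± 0.137, SE; adjusted p = 0.00555). This call was lost without NFE2L2 siRNA 1 or 3 (adjusted p = 0.0126 and 0.0202) and without control library 1, 2, 3 or 4 (0.0117, 0.0291, 0.0138 and 0.0168). SLC47A2 had only 2, 0 and 1 reads after silencing against 10, 10, 10 and 12 in the controls, so its place in this order is imprecise. DESeq2 gave no adjusted p for SLC47A2. It lost its call in the fits without NFE2L2 siRNA 2 or 3 or any 1 control library (0.0119 to 0.0399). The other 7 most reduced genes were called whichever library was left out.

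**Figure D5:**
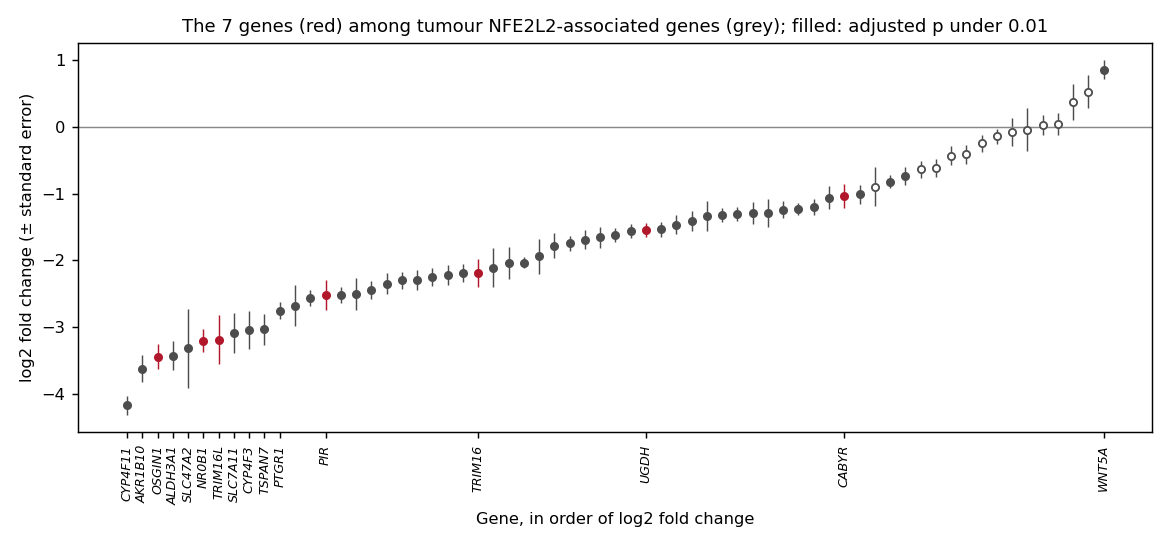
Log2 fold change (NFE2L2 siRNA minus control siRNA, vertical axis, with standard error) of the 58 tested genes of the tumour list (grey) and the 7 genes (red), in order, with filled points for an adjusted p under 0.01 and names for the 7 genes, the 8 most reduced list genes and WNT5A. The red points run from −3.45 for OSGIN1 to −1.03 for CABYR, and WNT5A is the filled point above 0.

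The genes with the most similar pattern to each member were found by Pearson's r of log2(CPM + 0.5) over the 8 libraries, among 13335 genes with a mean of at least 50 reads. They were AKR1B10 (r = 0.998), SRGN (0.997) and GCLM (0.997) for OSGIN1, TKT (0.998), MGST1 (0.998) and RAB10 (0.996) for PIR, and MGST1 (0.997) and TKT (0.997) for TRIM16. For TRIM16L they were MGST1, CCDC150 and B4GALNT1 (0.995, 0.995 and 0.994), and for CABYR they were TSKU, MYH14 and KIAA0232 (0.993, 0.984 and 0.984). NR0B1 was most like FTH1P20, SRXN1 and PPP2R2C (0.998, 0.997 and 0.996), and UGDH most like AKR1C2, CYP4F11 and ENSG00000231683 (0.998, 0.997 and 0.997). Among the members r ranged from 0.928 (OSGIN1 with CABYR) to 0.999 (PIR with TRIM16). These values describe libraries that share 1 line, and most of the variation lies between the silenced and the other libraries.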

How the data were processed

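Per the labels and the methods of the study, the authors aligned the reads with HISAT 0.1.6 to hg19 and deposited the raw count of reads that HTSeq 0.6.0 assigned, by strand, to each GENCODE v19 gene. Reads without a unique place (16.9 to 19.1% of entries) and ambiguous reads (1.09 to 1.23%) entered no gene.

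The 7 genes, the lists and the tests were chosen with earlier results of these data known. A gene was tested if any of the 7 compared libraries had 10 or more reads on it. edgeR 4.0.16 in R 4.3.3 was used (TMM, glmQLFit and glmQLFTest, prior count 0.125, two-sided, Benjamini-Hochberg adjustment over all tested genes, threshold 0.01). The SE is the size of the log2 fold change divided by the square root of F. CPM used TMM factors over all 8 libraries. Control duplexes were compared in a fit with 3 groups, and the paralog ratio by an exact permutation test. Positions and exon lengths are those of GENCODE v44 on GRCh37, which held 55538 of the 60291 gene rows and may differ from the models counted.

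Genes to be named were the members, NFE2L2, KEAP1, genes that overlap or flank a member, up to 4 per functional list and 8 per direction of the tumour list, and the 3 most like each member, of which 1 for TRIM16 is not reported here. Cell type markers were named after their values were seen.

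Alternatives were DESeq2 1.42.0 (the tool of the study), limma-voom (limma 3.58.1), other scaling factors, filters, thresholds and control groups, a robust fit, and leaving out single libraries. No pair of libraries agreed within sampling noise (chi-square per degree of freedom of at least 12.6). On simulated counts of this comparison with 17444 genes, 200 of them changed, edgeR recovered 85% of 2-fold and 100% of 4-fold changes with 8 false calls.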

Additional observations from a re-analysis of the deposited data

Results flagged for a closer look

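UGDH in control siRNA library 1 was at 870 CPM and stood apart from the other control libraries, the lowest of which was at 731 CPM. The distance to the nearest other control was 0.838 of the whole range, beyond Dixon's 95% limit for 4 samples. NECAB2 in control siRNA library 1 was at 4.65 CPM and stood apart below the others, which reached 6.42 CPM, the distance being 0.836 of the range. The 4 control values of 27 genes were examined, and chance alone would flag about 1 group in 20, or 1.35 groups. Both genes were also called lower without this library.

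In the mock library, which entered no test, UGDH-AS1 was at 1.40 CPM, above the control siRNA range of 0.859 to 1.21 CPM, and LIAS was at 12.4 CPM, above the range of 10.3 to 11.1 CPM. Both values come from 1 library and were not tested.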

How the results depend on the processing

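No result was reversed under any alternative that was run. OSGIN1, NR0B1 and UGDH were called lower in all 18 alternatives, PIR and TRIM16 in 17 each, TRIM16L in 15 and CABYR in 10. Of the 7 genes, 3 passed with control duplex 2 alone, 5 with control duplex 1 alone or with the duplexes summed, and 6 to 7 when single libraries were left out. The 491 genes past the threshold became 1319 with DESeq2, 1019 with a minimum of 1 read, 1456 at a threshold of 0.05, 772 with the mock library among the controls, 120 with control duplex 1 alone, 59 with control duplex 2 alone and 78 with the duplexes summed. With single libraries left out they numbered from 163 (without control siRNA 2) to 915 (without NFE2L2 siRNA 2), and they were 238 without NFE2L2 siRNA 3 and 277, 198 and 221 without control siRNA 1, 3 and 4. The share of calls that were lower was 49.5%, and it was 80% and 89.8% with control duplex 1 or 2 alone, 96.2% with the duplexes summed and 48.7 to 78.5% with single libraries left out. The 45 called genes of the tumour list became 24 with control duplex 2 alone, 29 with the duplexes summed and 37 to 44 with single libraries left out. The fits with 1 control duplex or with summed duplexes hold fewer samples.

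Between the control duplexes the count of 0 genes became 70 with DESeq2, 8 with a minimum of 1 read, 0 to 9 with single libraries left out (9 without NFE2L2 siRNA 2) and 546 in a fit of the 4 control libraries alone, which was added after the data had been seen. The cause was not tested. The 5 flanking genes past the threshold became 3 with either control duplex alone and 8 at a threshold of 0.05. The difference in log2 ratio of TRIM16L to TRIM16 stayed between −1.35 and −0.94 with single libraries left out, in designs too small for the test to pass. No paired analysis was possible because replicate numbers mark different duplexes among the NFE2L2 siRNA libraries and repeats within a duplex among the control libraries.

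Of 19 called genes named outside the members and their flanks, checked after the data had been seen, UGT1A1, KEAP1, CDH5, SLC47A2, WNT5A and NR5A2 kept the call in 7 to 10 of the alternatives. With NFE2L2 siRNA, VEGFD, NECAB2, ENSG00000251537, UGT1A1 and SLC47A2 had 0 to 13 reads per library, which limits the precision of their fold changes. Levels of TRIM16 and TRIM16L rest on the sequence that is not repeated.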
